A study of Mus musculus with 3 samples.

Results

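The genes described are 10 of the 21887 protein-coding genes on the chromosomes with peaks: Sorcs1, Ptprk, Mme, Gap43, Syt4, Pard3, Rarb, Eya2, Mkx and Ppargc1a. They were picked on measured values, because they contain or neighbour some of the strongest open-chromatin peaks that control cells had after 1 day of triiodothyronine (T3) and lacked before it. Each locus is the gene body with 30000 bp on either side, and its gained site is the control D1 peak with the highest −log10 q among those that overlap no control D0 peak. The difference between control D1 and control D0 at these sites is therefore a description of the choice, and no test is given for it. Seh1cKO values were also known when the genes were picked, so they too carry no test.

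The data are ATAC-seq, in which a transposase cuts and tags accessible DNA, so that fragments pile up over open promoters and enhancers. The 3 samples were Seh1cKO D1, control D1 and control D0, each a single library. All came from C57BL/6 mice of postnatal day 4 to 7, whose oligodendrocyte progenitors (OPCs) were purified from the cortex by immunopanning, and 50000 cells went into a library. Seh1cKO D1 cells carried a conditional knockout of Seh1 and had 1 day of differentiation medium. Control D1 cells were wild type and had the same medium and time. Control D0 cells were wild type progenitors in growth medium, and day 0 was read from a sample title that spells it with the letter O. Growth medium held PDGF-AA at 20 ng/ml, CNTF at 10 ng/ml, bFGF at 20 ng/ml and NT3 at 1 ng/ml, with 2% B-27 and 1% N2. In differentiation medium T3 was present at 60 nM and PDGF-AA, bFGF and NT3 were left out, so the hormone and the loss of growth factors cannot be told apart. The Cre driver of the knockout is not named in the sources used here, and Seh1cKO cells at day 0 were not analysed here.

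T3 acts through nuclear receptors that sit on DNA as partners of retinoid X receptors and exchange corepressors for coactivators when the hormone binds. In cultured OPCs, T3 together with loss of PDGF is the standard way to end division and start differentiation into myelin-forming oligodendrocytes. Seh1 is a nucleoporin of the Y complex, the scaffold that forms the rings of the nuclear pore. Open sites away from promoters that appear during differentiation are commonly enhancers, although accessibility alone does not say which gene a site acts on.

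The libraries held 10845533 fragments in Seh1cKO D1, 18260883 in control D1 and 23403600 in control D0, and 46113, 118441 and 108788 called peaks in that order. All heights below are pileups, the number of fragments over a peak's summit, per 1000000 fragments of the library (FPM). At annotated gene ends, 5 of 6 oligodendrocyte-lineage markers had a peak in each of the 3 libraries, with Cspg4 the one without. Of 6 myelin genes, 2 had one in Seh1cKO D1, 4 in control D1 and 3 in control D0. Peaks also lay at 4, 5 and 6 of 7 neuronal genes, at 4 of 5 astrocyte genes in each library, at 1, 1 and 2 of 6 microglial genes and at 1, 3 and 2 of 6 vascular genes, in the same order of libraries. An open gene end is no measure of cell number, and the part of other cells in the results below was not tested.

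At all 10 gained sites control D1 had a tall, narrow peak, Seh1cKO D1 had either a small peak or none, and control D0 had none. In control D1 the 10 heights ran from 3.18 to 4.22 FPM with a median of 3.70, which is 58 to 77 fragments. The fold over local background was 14.1 to 18.2 and the width 286 to 697 bp. Because each library is a bulk sample, fewer cells with an open site and less opening in every cell cannot be told apart. The 10 sites rank between 2 and 25 among the 71448 control D1 peaks that control D0 lacked. Such gained peaks made up 60.3% of the control D1 list and 11.6% of those at −log10 q 10 or more. At or above the q of the weakest of the 10 sites, there were 25 control D1 peaks that control D0 lacked, and 1 control D0 peak that control D1 lacked. Control D1 held 5973 peaks of that strength in all, and control D0 held 4283.

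**Figure D1:**
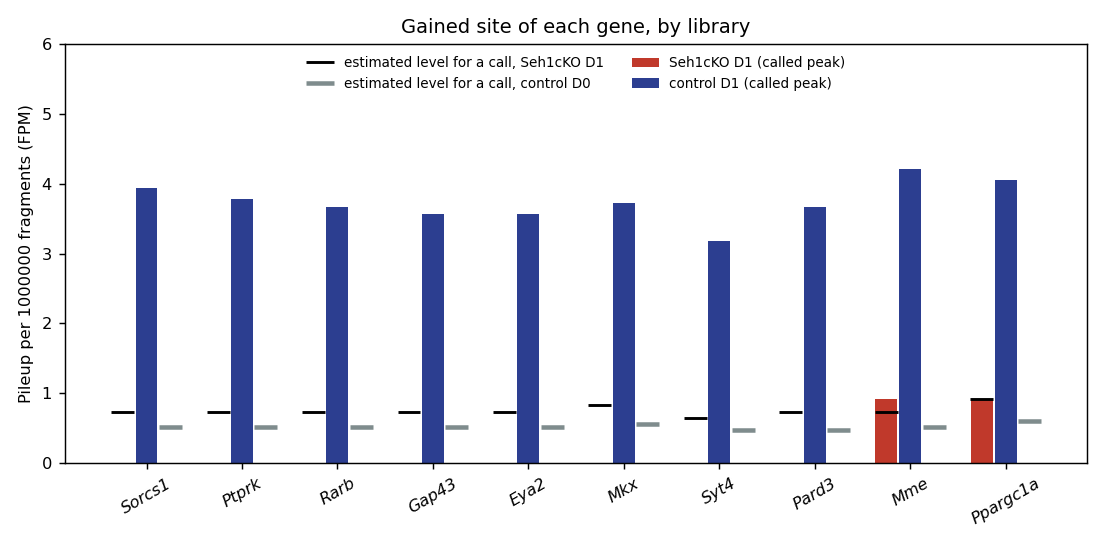
Pileup in FPM at the gained site of each of the 10 genes. Bars are called peaks, with Seh1cKO D1 in red at the left and control D1 in blue, while control D0 had no peak at any site, and the short lines mark the estimated level that a peak had to reach to be called in Seh1cKO D1 (black) and control D0 (grey). Control D1 stands between 3.18 and 4.22, and the only Seh1cKO D1 bars, at Mme and Ppargc1a, stand at 0.922.

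The first 3 genes encode proteins that work at the cell surface. Sorcs1 encodes a sorting receptor with a VPS10 domain that steers membrane proteins through endosomes. Its site, at chr19:50545743-50546141 (mm10, here and below), was not called in Seh1cKO D1, reached 3.94 FPM in control D1 (95% counting interval 3.09 to 4.97) and was not called in control D0. It lay inside the gene, 132733 bp downstream of the listed transcription start, and the closest control D0 peak was 19408 bp away.

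Ptprk encodes a receptor tyrosine phosphatase that binds its like on neighbouring cells. The site at chr10:28376792-28377184 was not called in Seh1cKO D1 and had 3.78 FPM in control D1 (2.94 to 4.78), with no call in control D0. It lay 302197 bp downstream of the listed start, deep in the gene body.

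Mme encodes neprilysin, a membrane metallopeptidase that cuts signalling peptides and amyloid beta. Its site at chr3:63326400-63326780 was the strongest of the 10 and was 1 of only 2 that had a peak in Seh1cKO D1. It had 0.922 FPM in Seh1cKO D1 (0.442 to 1.70, 10 fragments) and 4.22 in control D1 (3.33 to 5.27, 77 fragments), with no call in control D0. The Seh1cKO D1 height was 0.219 of the control D1 height, with a counting interval from 0.101 to 0.424, and the −log10 q of the call was 4.60 in Seh1cKO D1 against 72.4 in control D1.

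Gap43, Syt4 and Pard3 are best known from axons, vesicles and cell polarity. Gap43 encodes a growth-cone protein attached to the inner face of the membrane. Its site, chr16:42294348-42295044, was the widest of the 10 and lay in the middle of the gene, 46180 and 45919 bp from its ends. No peak was called there in Seh1cKO D1, control D1 had 3.56 FPM (2.75 to 4.54), and control D0 had no call.

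Syt4 encodes a synaptotagmin, a vesicle protein of regulated secretion. Its site at chr18:31430903-31431271 lay 6537 bp outside the annotated gene and was the weakest of the 10. It had no call in Seh1cKO D1, 3.18 FPM in control D1 (2.41 to 4.11) and no call in control D0.

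Pard3 encodes a scaffold of the PAR polarity complex, which marks out membrane domains and sets up axons. The site at chr8:127055022-127055505 was upstream, 8797 bp from the listed start. It had no call in Seh1cKO D1, 3.67 FPM in control D1 (2.84 to 4.66) and no call in control D0.

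The other 4 genes act in the nucleus. Rarb encodes a retinoic acid receptor, which like the T3 receptors pairs with retinoid X receptors. Its site at chr14:16815804-16816089 had no call in Seh1cKO D1, 3.67 FPM in control D1 (2.84 to 4.66) and no call in control D0. The gene runs on the minus strand, and the site lay 240429 bp upstream of the listed start but still inside the annotated gene, which extends past that start.

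Eya2 encodes a transcriptional coactivator with phosphatase activity that works with Sine oculis-type homeodomain proteins. Its site at chr2:165597540-165597954 was the closest of the within-gene sites to a gene end, with its summit 2785 bp inside the lower coordinate. It had no call in Seh1cKO D1, 3.56 FPM in control D1 (2.75 to 4.54) and no call in control D0.

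Mkx encodes Mohawk, a homeodomain factor of tendon development. Its site at chr18:6906703-6907334 lay 27632 bp beyond the lower end of the gene, near the edge of the locus as defined. There was no call in Seh1cKO D1, 3.72 FPM in control D1 (2.89 to 4.72) and no call in control D0.

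Ppargc1a encodes PGC-1 alpha, a coactivator of nuclear receptors that drives mitochondrial biogenesis. Its site at chr5:51830339-51830858 was the other one with a peak in Seh1cKO D1. It had 0.922 FPM in Seh1cKO D1 (0.442 to 1.70, 10 fragments) and 4.05 in control D1 (3.18 to 5.09, 74 fragments), with no call in control D0. The ratio of Seh1cKO D1 to control D1 was 0.228 (0.105 to 0.442). As at Rarb, the site was inside the annotated gene yet upstream of the listed start, by 262938 bp.

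Absence of a call is not absence of signal, so each library's reach at these sites was estimated. The level for a call was estimated from each library's weakest called p and the control D1 local background, scaled to depth. It was 0.645 to 0.922 FPM in Seh1cKO D1 and 0.470 to 0.598 in control D0. That background takes in the control D1 peak itself, so the estimate can be too high and the margins below too small. The lowest heights called anywhere were 0.553 FPM in Seh1cKO D1 and 0.385 in control D0. Control D1 stood 4.40 to 5.72 times above the Seh1cKO D1 level and 6.70 to 8.22 times above the control D0 level. The calls at Mme and Ppargc1a, 10 fragments each, lay at or just over that level, for which 8 and 10 fragments were needed. A site without a call could still hold signal, and the counting intervals of both calls reach down to 0.442 FPM, under the lowest height called in that library. The presence of a call in Seh1cKO D1 therefore does not separate those genes from the other 8. The estimate is not exact: of 12 strong gained peaks called in Seh1cKO D1, 2 were under it.

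A gained site called in Seh1cKO D1 was not rare among peaks of this rank. Among the 25 gained peaks at least as strong as the Syt4 site, 12 were called there (48%), 2 of them in the 10 genes and 10 of the 15 elsewhere. Among all gained peaks at −log10 q 10 or more the share was 23.7%. The 10 others had 0.645 to 1.20 FPM in Seh1cKO D1 and ratios to control D1 of 0.118 to 0.285, so that Mme, at 0.219, and Ppargc1a, at 0.228, lie inside their range. Just past the weakest member, with a −log10 q of 52.6 at Syt4, the next gained peaks had 51.9, near Bbx, and 50.6, near Oca2.

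**Figure D2:**
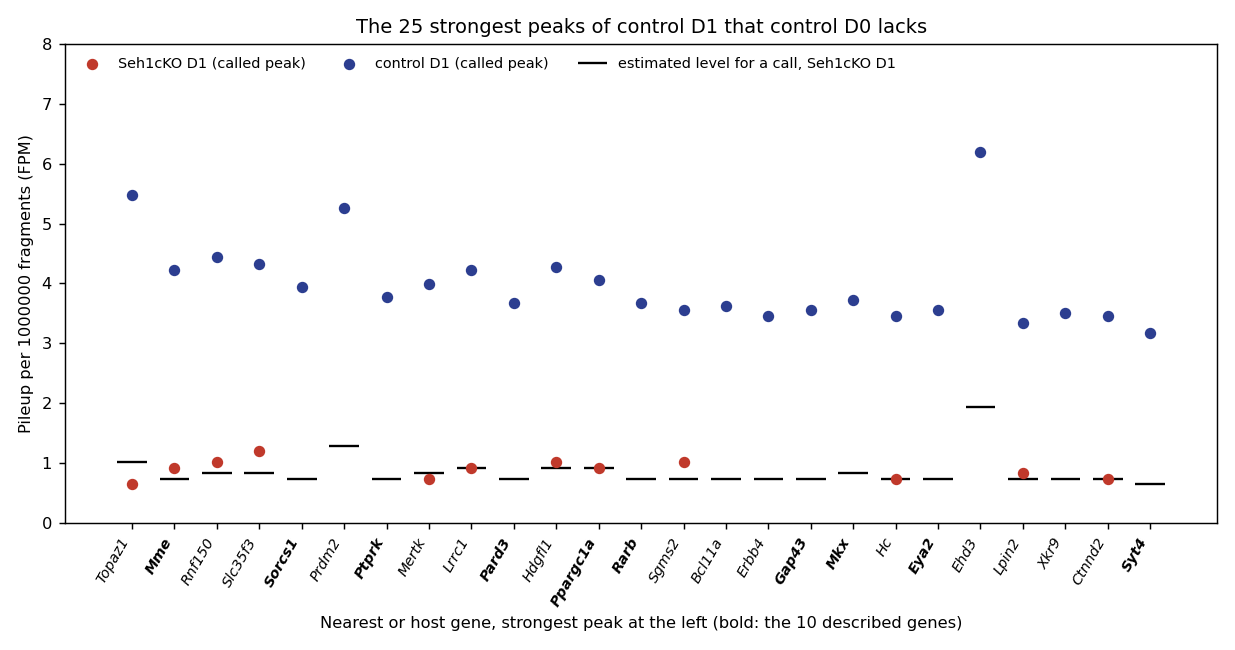
The 25 strongest control D1 peaks that control D0 lacked, ordered by −log10 q from left to right and named by the host or nearest protein-coding gene. Points are pileups in FPM in Seh1cKO D1 (red, where called) and control D1 (blue), and black lines are the estimated level for a call in Seh1cKO D1. All red points lie between 0.645 and 1.20, and the blue points start at 3.18.

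Away from the gained sites the 10 loci held many weaker peaks. Together they had 75 peaks in Seh1cKO D1, 213 in control D1 and 196 in control D0, from 5 control D1 peaks at Syt4 to 43 at Pard3. The gained site was the first of its locus by −log10 q at 7 genes and the second at Ptprk, Gap43 and Pard3. It was 3.52 to 6.42 times as high as the median of the other control D1 peaks of its locus, with the smallest ratio at Syt4 and the largest at Mme.

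Each locus had 1 gained site of this strength. Only 25 gained peaks were as strong as the weakest site, in the loci of 22 of 21887 genes. A lack of a further one is therefore no result about these loci. The next strongest gained peak had a −log10 q between 3.20 at Syt4 and 19.3 at Ptprk, and none of these 10 was called in Seh1cKO D1. Over the loci, 7 gained peaks other than the sites had a −log10 q of at least 10, and 0 of the 7 were called in Seh1cKO D1 (95% interval up to 41.0%). That interval includes the 23.7% called among all gained peaks at this limit. The 7 peaks lay at Ppargc1a (3), Pard3 (2), Ptprk and Mkx. Of all 137 other gained peaks 4 were called in Seh1cKO D1, or 2.92%, against 5.83% of gained peaks over all gene loci.

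**Figure D3:**
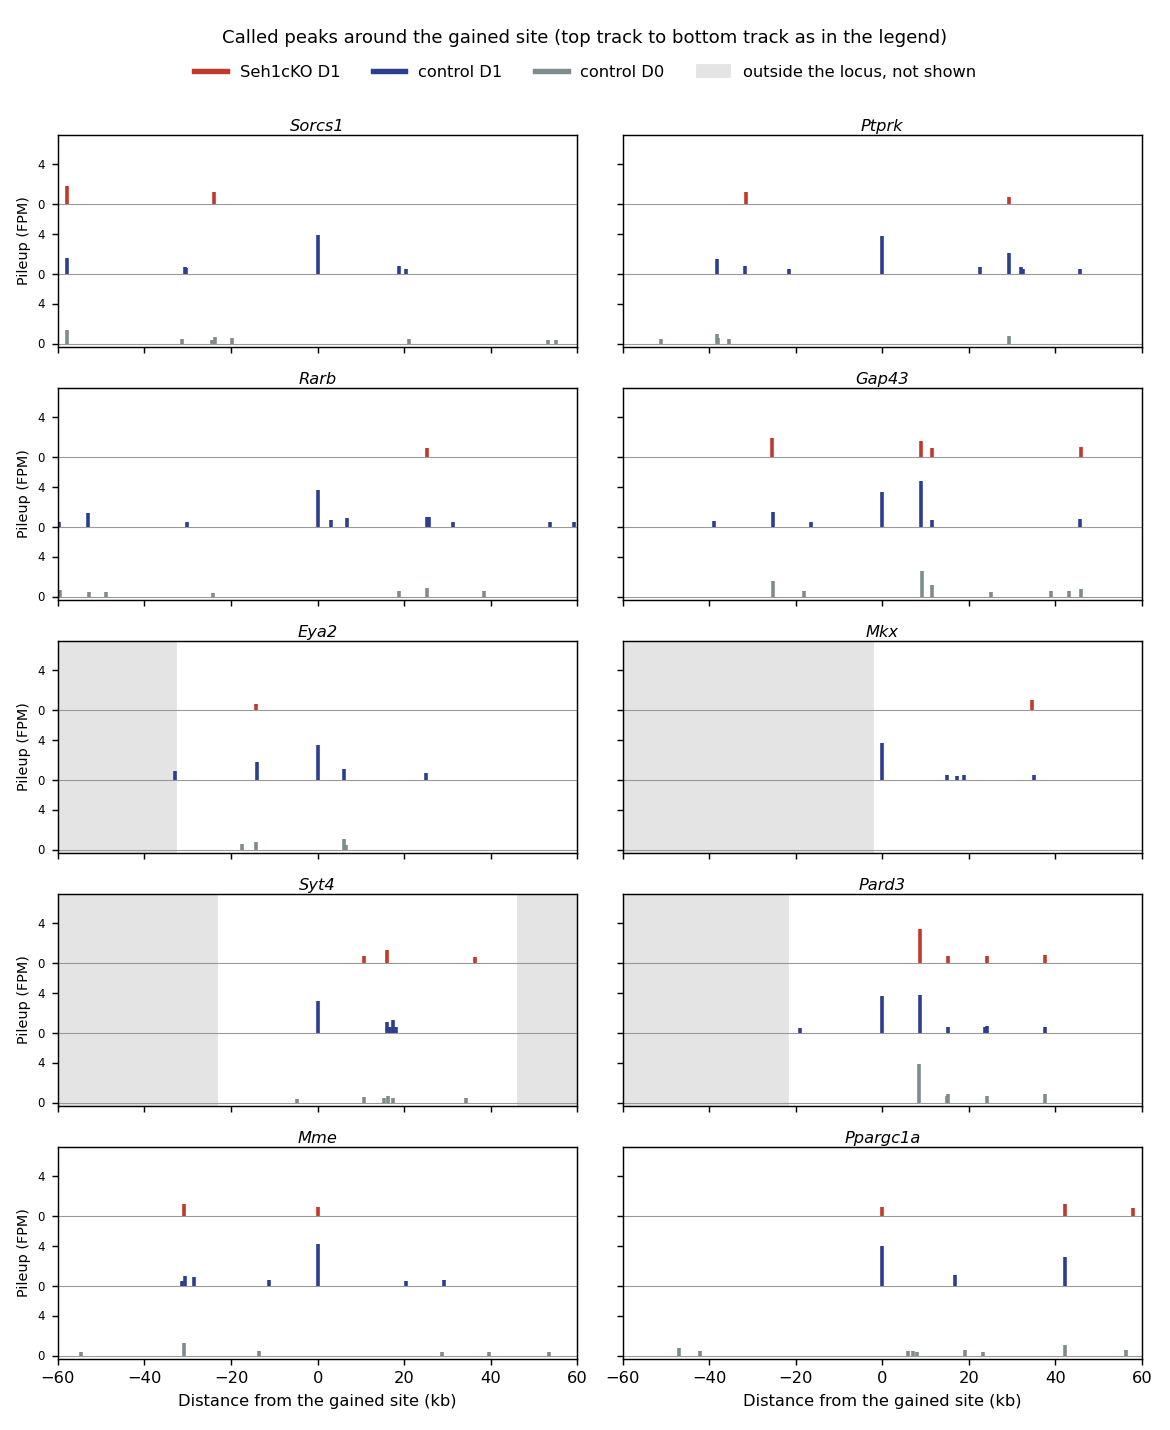
Called peaks within 60 kb of the gained site of each gene, drawn as stems at their distance from the site with the height in FPM. Each panel has the Seh1cKO D1 track at the top, control D1 in the middle and control D0 at the bottom, and grey shading marks positions outside the locus. In the control D1 track the stem at 0 is the gained site, which has no counterpart in the control D0 track and a small one in Seh1cKO D1 only at Mme and Ppargc1a.

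The peaks other than the sites, weak and strong together, changed between lists in both directions. Of the 203 control D1 peaks other than the sites, 66 (32.5%, 26.1 to 39.4) were called in control D0, against 43.8% over all gene loci. In Seh1cKO D1 50 of the 203 (24.6%, 18.9 to 31.2) were called, against 34.6%. In the other direction 130 of the 196 control D0 peaks had no control D1 peak, where 51.8% did so over all gene loci. Only 1 of these 130 had a −log10 q of at least 10, a peak of 0.897 FPM at Ppargc1a with a −log10 q of 10.5, and it was called in Seh1cKO D1 too. A control D1 peak of 0.438 FPM lay within 500 bp of it and would count as present with that allowance. The loci were picked for strong gained peaks, so the strength of their gained and lost peaks cannot be compared. The share of control D0 peaks at −log10 q 10 or more that control D1 lacked over all gene loci is not given here.

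Among the stronger peaks most of each locus was already open in progenitors. Of the 45 at −log10 q 10 or more, the sites left out, 38 (84.4%) were called in control D0 and 31 (68.9%, 53.4 to 81.8) in Seh1cKO D1, against 89.7% and 81.5% over all gene loci. Of the 66 control D1 peaks that control D0 shared, 46 were called in Seh1cKO D1 (69.7%), against 71.7%.

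The gene ends were open before T3 at most of the loci. All 3 libraries had a peak no more than 1000 bp from a gene end at 8 of the 10 genes, where 54.1% of all genes had one, and at Rarb one lay at the listed start. Eya2 had none at either end. At Sorcs1 the peak at the start had 3.41 FPM in Seh1cKO D1, 3.83 in control D1 and 2.35 in control D0. At Ptprk the values were 3.50 in Seh1cKO D1, 3.78 in control D1 and 2.99 in control D0. At Pard3 they were 3.41, 3.78 and 3.85 in the same order. These 3 starts were thus about as tall in control D1 as the gained sites, but open in every library, with control D1 between 0.983 times (Pard3) and 1.63 times (Sorcs1) the control D0 height.

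The starts of Mme and Rarb were lower and did not stand highest in control D1. The Mme peak had 1.20 FPM in Seh1cKO D1, 1.04 in control D1 and 1.24 in control D0. The Rarb peak had 1.66 in Seh1cKO D1, 1.26 in control D1 and 1.37 in control D0. Ppargc1a runs on the minus strand, and its higher-numbered, upstream gene end had 3.13, 4.82 and 3.59 in that order. Within 1000 bp of the listed start of Ppargc1a the tallest peaks had 0.922, 1.26 and 0.726, but the start itself lay inside a peak only in control D0. At the higher-numbered end of the gene, Gap43 had 1.01, 0.821 and 0.812. Mkx had 1.57, 1.86 and 1.5 there, but the Seh1cKO D1 and control D1 values come from separate peaks. The control D1 peak that overlaps the Seh1cKO D1 peak of Mkx had 0.712. At that end of Syt4 the overlapping peaks had 1.29, 1.15 and 0.641, and a separate control D1 peak had 1.31. Syt4 thus stood well above control D0 in control D1 and in Seh1cKO D1. The control D1 peak beside the listed start of Ppargc1a also stood well above the control D0 peak there. Where a window held several peaks, the tallest of each library is given unless stated otherwise, and these need not overlap between libraries.

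Promoter sequences from RefSeq (GRCm38.p6, whose main chromosomes have the mm10 coordinates) were listed for 6 of the 10 genes, at 9 starts, each from 250 bases before to 50 after the start. The 3 below are shown because they are open in all 3 libraries while the gained site of the same gene is not, and because each holds a match to a searched motif. Capitals mark matches to the motifs on either strand.

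Ptprk promoter (chr10:28074570-28074869, plus strand): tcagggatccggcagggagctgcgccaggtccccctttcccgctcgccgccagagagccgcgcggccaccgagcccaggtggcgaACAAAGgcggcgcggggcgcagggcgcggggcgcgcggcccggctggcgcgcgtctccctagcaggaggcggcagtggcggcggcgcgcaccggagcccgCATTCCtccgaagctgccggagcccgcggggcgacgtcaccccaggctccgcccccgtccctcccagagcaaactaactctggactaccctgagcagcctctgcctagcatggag

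Mme promoter (chr3:63295622-63295921, plus strand): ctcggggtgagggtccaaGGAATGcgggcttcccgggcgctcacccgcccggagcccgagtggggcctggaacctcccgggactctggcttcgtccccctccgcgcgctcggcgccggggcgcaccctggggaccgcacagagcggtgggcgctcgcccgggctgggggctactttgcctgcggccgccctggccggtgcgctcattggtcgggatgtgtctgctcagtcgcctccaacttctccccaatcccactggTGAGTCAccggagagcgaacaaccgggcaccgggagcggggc

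Rarb promoter (chr14:16575427-16575726, minus strand): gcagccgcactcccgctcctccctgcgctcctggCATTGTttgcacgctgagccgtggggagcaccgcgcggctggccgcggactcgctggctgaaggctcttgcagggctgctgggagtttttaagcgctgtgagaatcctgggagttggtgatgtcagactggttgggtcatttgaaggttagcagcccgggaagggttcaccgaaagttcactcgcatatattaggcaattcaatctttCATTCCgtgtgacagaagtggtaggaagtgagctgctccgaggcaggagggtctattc

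The letters searched, on both strands, were TTGGCA (a partial site of NFI factors), ACAAAG (Sox factors) and likewise ACAATG, the E-box CAGCTG and the E-box CAGATG (bound by bHLH factors such as Olig2), AGGTCA (the core site of nuclear receptors), TGAGTCA (AP-1) and GGAATG (TEAD factors). In the Ptprk promoter the capitals are ACAAAG and, reversed, GGAATG. In Mme they are GGAATG and TGAGTCA, and in Rarb the reversed forms of ACAATG and GGAATG. Over the 9 starts, the TEAD letters were in 3, and either Sox form and the AP-1 letters in 2 each. The NFI letters, both E-boxes and the nuclear receptor letters were in 0. Variant forms of these sites were not searched, so a 0 does not mean that a promoter lacks one. Both AP-1 matches are the same site in overlapping windows of Mme. Of all 32851 listed promoters, 14.7% held the TEAD letters, 18.7% the first Sox form, 12.6% the other Sox form and 5.20% the AP-1 letters. The NFI letters were in 14.1%, the E-boxes in 16.3% and 17.2%, in the order given, and the nuclear receptor letters in 16.3%. The Sorcs1 promoter (80.7% GC) and the first Pard3 promoter (78.7% GC), also open in all 3 libraries, held none of them, against a median GC of 52.7% over all promoters. The sequences of the gained sites were not analysed here.

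Some distal peaks that progenitors already had were also tallest in control D1. Of the 31 that reached −log10 q 10 in control D1 and were called in all 3 libraries, 9 lay at a gene end or listed start and 22 elsewhere. Control D1 was at least 1.5 times as high as both Seh1cKO D1 and control D0 at 8 of the 22 distal peaks and at 0 of the 9 others. Over all gene loci the shares were 29.5% of such distal peaks and 7.48% of such gene-end peaks. The count depends on the scaling: with the libraries scaled to the peaks called in all 3, it was 4 of the 22 and 0 of the 9, against 14.5% and 2.34% over all gene loci. Under either scaling the counts lie close to the shares over all gene loci, so they are no result about these 10 loci. The 4 lie in Pard3, Ptprk, Eya2 and Ppargc1a. Both ratios use the same control D1 value, so a high count there raises both, and the 1.5-fold limit was chosen after the values were seen.

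**Figure D4:**
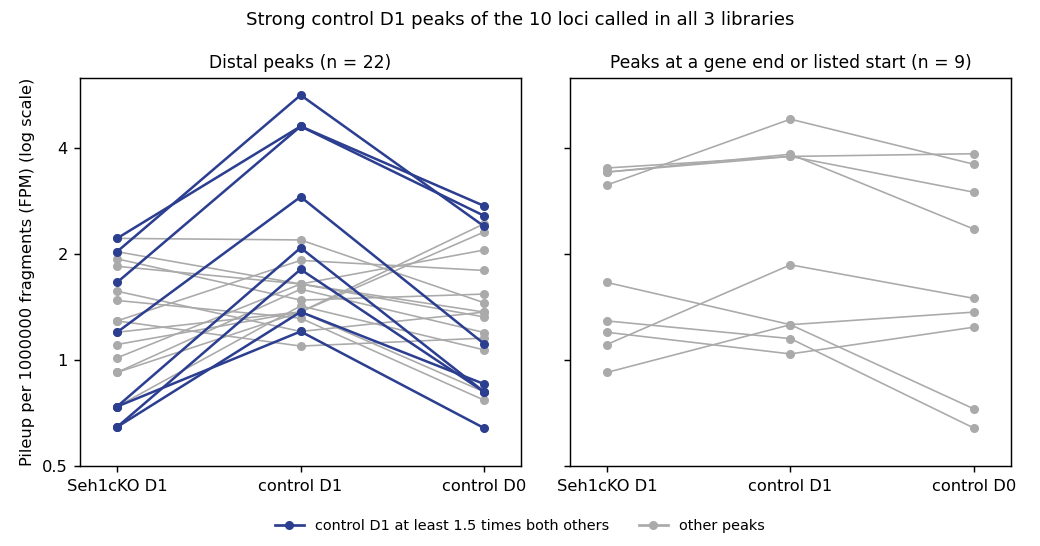
Pileup in FPM, on a log scale, of the 31 strong control D1 peaks of the 10 loci that were called in all 3 libraries. Each line is 1 peak across Seh1cKO D1, control D1 and control D0, with distal peaks at the left and peaks at a gene end or listed start at the right, and blue marks control D1 at least 1.5 times both others. Blue lines are 8 of the 22 distal peaks and 0 of the 9 others, and 4 of the 8 keep to the limit when the libraries are scaled to the peaks called in all 3.

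Of these 8, 3 were taller than the gained site of their own gene. In Pard3, a peak 199481 bp from the gained site (chr8:127254557-127255174) had 2.03 FPM in Seh1cKO D1, 5.64 in control D1 and 2.39 in control D0. The Pard3 peak kept to the 1.5-fold limit under the other scaling, and the next pair did not. In Gap43, a peak only 8968 bp from the gained site (chr16:42303397-42304056) had 1.66 in Seh1cKO D1, 4.60 in control D1 and 2.56 in control D0. In Ptprk, the peak at chr10:28586637-28587182, near the far end of the gene, had 2.21 in Seh1cKO D1, 4.60 in control D1 and 2.73 in control D0. At each of the 3 the Seh1cKO D1 height was below the control D0 height.

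At the other 5, Seh1cKO D1 and control D0 were both at 1.20 or less. A Ppargc1a peak 42299 bp from the gained site had 1.20 FPM in Seh1cKO D1, 2.90 in control D1 and 1.11 in control D0. Another Ptprk peak, 29297 bp from its site, had 0.738 in Seh1cKO D1, 2.08 in control D1 and 0.812 in control D0. The Eya2 peak 14120 bp away had 0.645 in Seh1cKO D1, 1.81 in control D1 and 0.812 in control D0. The last pair, in Ptprk and Ppargc1a, reached 1.20 and 1.37 in control D1 and fell short of the limit under the other scaling.

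Not all peaks of the loci went that way. At Ptprk the peak at chr10:28097726-28098028 had 1.20 FPM in Seh1cKO D1, 1.37 in control D1 and 2.44 in control D0. At Ppargc1a the one at chr5:51543960-51544641 had 0.922, 1.37 and 2.31 in that order. Over the 66 shared peaks the median log2 ratio of control D1 to control D0 was 0.27, with 47 above 0 and a range of −1.07 to 1.54, and over all control D1 peaks it was 0.39. Over the 52 peaks called in both day 1 libraries, which include the Mme and Ppargc1a sites, the median log2 ratio of Seh1cKO D1 to control D1 was −0.06, against −0.12 over all peaks. At a −log10 q of at least 10 it was −0.57 over 33 peaks of the loci, these sites included, against −0.29. The limit is set on control D1, which favours peaks that are high there. At that limit the median log2 ratio of control D1 to control D0 was 0.51 over 38 shared peaks of the loci, against 0.57. These medians depend on the scaling of the libraries: peaks called in all 3 had a median ratio to control D1 of 0.907 in Seh1cKO D1 and 0.744 in control D0, and with these as scale the median of control D1 to control D0 became −0.16 and that of Seh1cKO D1 to control D1 became 0.09. The median of Seh1cKO D1 to control D1 was also above 0, at 0.13, when a peak within 500 bp counted as present.

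Of 40 relatives and partners of the 10 genes, 7 (17.5%) had in the locus a gained peak at −log10 q 10 or more, against 15.9% of all genes. They were Sorcs2 and Sorcs3 (sorting receptors like Sorcs1), Ptprm and Ptprt (receptor phosphatases), Syt11, Pard3b and Ece1, an endothelin-converting peptidase of the Mme family. The strongest, at Ptprt, had a −log10 q of 28.9, and the tallest gained peak of the 40 loci had 2.03 FPM in control D1. A gained peak as strong as the Syt4 site was found at 0.101% of all genes (22 of 21887), so the lack of one among 40 genes is no result about them. At Sorcs3 the gained peak had 0.830 FPM in Seh1cKO D1 and 2.03 in control D1. At Syt11 the values were 1.94 in Seh1cKO D1 and 2.03 in control D1. Of the 7 peaks, 4 were called in Seh1cKO D1, at Sorcs2, Sorcs3, Syt11 and Ece1. Over all gained peaks at −log10 q 10 or more the share was 23.7%, and 7 peaks are too few for a result about these genes. Genes of the retinoid receptor, growth-cone and synaptic, Eya, Irx and PGC-1 groups had 0 gained peaks at −log10 q 10 or more. These groups are small and 15.9% of all genes had such a peak, so this is no result about them.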

How the data were processed

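The build was mm10 and the tools were Bowtie2, SAMtools and MACS2, per the submitters' processing notes. Per the file headers, MACS 2.1.2_dev called peaks in each library alone, on paired-end fragments with all duplicates kept, without a control, at a q of 0.05. Amplified copies can therefore add to a pileup, which was not tested. The deposited tables give the pileup signal at each summit in fragments, the −log10 of the p-value and q-value, and fold enrichment as a ratio to local background. The names of both −log10 columns are damaged; the Poisson p recomputed from pileup and fold matched the deposited −log10 p within 0.01 for at least 99.9% of peaks.

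Pileups were scaled to 1000000 of the fragments in the header (FPM). A peak counted as present in another library at an overlap of 1 bp or more. The level for a call is the smallest pileup whose Poisson p over the control D1 background, scaled to depth, reached the library's weakest called p, ignoring peak length. Intervals are exact (Poisson, Clopper-Pearson, 95%) and cover counting error only. With 1 library a group there is no test. Gene bodies came from RefSeq GRCm38.p6. The genes and lists were chosen with earlier results of these data known. Related genes named are those with a gained peak of −log10 q of at least 10, and other peaks named in the loci were chosen after their values were seen. Other genes named are, by −log10 q of the nearest gained peak, the first 5 called in Seh1cKO D1, the first 5 not called there, and those next to the weakest site. Python 3.11.15, pandas 2.3.3 and scipy 1.17.1 were used, and overlaps were tested on simulated data.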

Additional observations from a re-analysis of the deposited data

How the results depend on the processing

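No paired analysis was possible because each group has 1 library, and for the same reason no library could be left out. The gained site stayed the same peak at all 10 genes under every setting tried except a window of 10000 bp, which left out the Mkx site. As fold enrichment the median of the sites was 16.0. The 2 Seh1cKO D1 calls became 0 where every list was held to a −log10 q of at least 5 or of at least 10, and stayed 2 under the other settings. The share of the remaining control D1 peaks called in control D0 was 48.9% and 60.0% at those limits, 64.2% in lists of equal length and 40.4% when a peak within 500 bp counted. The share called in Seh1cKO D1 was 52.2% in lists of equal length. Peaks in the loci numbered 32 in Seh1cKO D1, 100 in control D1 and 63 in control D0 at a limit of 5, and 14, 55 and 30 at a limit of 10. In lists of equal length control D1 had 77 and control D0 had 65. The median log2 ratio of control D1 to control D0 at shared peaks was −0.16 when scaled to peaks in all 3 libraries. Under that scaling, chosen for this count after the data were seen, the distal peaks with control D1 at least 1.5 times both others numbered 4 in place of 8. The cause of these changes was not tested beyond their construction. The planned motif search at the gained sites was not run. Depth limits Seh1cKO D1 most, where the lowest pileup called, 6 fragments, is 0.553 FPM.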

Other observations

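The other 15 gained peaks as strong as those of the 10 genes lie at genes of varied kind. At Mertk, a receptor kinase for the uptake of dying cells, the peak had 0.738 FPM (pileup per 1000000 fragments) in Seh1cKO D1 and 4.00 in control D1. At Rnf150 it had 1.01 in Seh1cKO D1 and 4.44 in control D1, and at Slc35f3 1.20 in Seh1cKO D1 and 4.33 in control D1. At Erbb4, a neuregulin receptor, it was not called in Seh1cKO D1 and had 3.45 in control D1. At Lrrc1 it had 0.922 in Seh1cKO D1 and 4.22 in control D1. The tallest, at Ehd3, was not called in Seh1cKO D1 and had 6.19 in control D1, over a higher local background (7.12-fold), with a control D0 peak of 2.95 FPM 2528 bp away. The peaks nearest to Topaz1, Xkr9, Prdm2 and Bcl11a lie 105352, 139442, 364273 and 482337 bp outside those genes, so the name of the nearest gene says little about them. All 15 overlap no control D0 peak, but at Sgms2, named here after its values were seen, a control D0 peak of 0.513 FPM lies 12 bp away, and it would count as present with a 500 bp allowance. It is the 1 peak of the 15 with a control D0 peak within 500 bp.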
